A study of Mus musculus with 6 samples.

Results

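Serotonin receptors were measured with 13 probes for 10 genes: Htr1a, Htr1b, Htr1d, Htr2a, Htr2c, Htr3a, Htr4, Htr5a, Htr5b and Htr7. They were taken by name, as every probe that the array's own annotation assigned to these genes, of 41174 probes with 27373 gene names. The study measured total RNA of the whole prefrontal cortex on 6 Agilent one-colour arrays, each from 1 untreated male mouse aged 5 months, with 3 mice in each group. The first group was BTBR T+ Itpr3tf/J, an inbred strain used as a model of autism-like behaviour, which the labels give the background C57BL/6J. The other group was wild-type C57BL/6J, a standard laboratory strain. The 2 groups are therefore compared as whole strains, so a difference in any part of the genome between them cannot be told apart from any other. Levels are log2 of the processed signal relative to the 75th percentile of each array, where 0 is the signal at that percentile and 1 unit is a doubling. Probes entered the test if the scanner software called them well above background on 3 or more of the 6 arrays whatever the strain, as it did for 30011, and a difference is BTBR minus C57BL/6J. The levels of different probes are not set against each other, because each probe binds its target with its own strength.

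Serotonin released by axons from the raphe nuclei of the brainstem acts on a large receptor family. The Htr1 and Htr5 receptors are linked mainly to Gi/o proteins, which lower cyclic AMP and open potassium channels, although the coupling of the Htr5b receptor is less well defined. The Htr2 receptors act through Gq/11 and phospholipase C, the Htr4 and Htr7 receptors through Gs and cyclic AMP, and Htr3a encodes a subunit of a ligand-gated ion channel. In the prefrontal cortex Htr1a and Htr2a are best known from pyramidal neurons, and Htr3a from interneurons of the caudal ganglionic eminence (CGE).

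The probes sample different stretches of the receptor transcripts, and their sequences are shown because each value below is the signal of that stretch alone. The following probes are given 5′ to 3′ in the sense orientation, whole for Htr1b, Htr1d, Htr2a and Htr5a, and as their first 30 bases for Htr5b and for both Htr2c probes that entered the test. The capitals mark the start codon inside the Htr5a probe. 
Htr5b (A_51_P322115): ttttaggtattggtgagcatttgttagacc
Htr5a (A_51_P151682): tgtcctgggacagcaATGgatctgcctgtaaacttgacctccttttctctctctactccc
Htr1b (A_52_P103998): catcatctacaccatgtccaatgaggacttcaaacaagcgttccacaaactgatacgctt
Htr1d (A_51_P419551): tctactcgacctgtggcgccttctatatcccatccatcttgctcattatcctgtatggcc
Htr2a (A_51_P395193): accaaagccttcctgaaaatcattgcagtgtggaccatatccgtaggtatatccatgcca
Htr2c (A_51_P370810): ctgctcattcacacacgtaaactcagtaag
Htr2c (A_52_P487454): ccgtatcgatgtaaggcagagaaactgata
Each probe is 60 bases long. By the positions in the array files, in mouse build mm9, the Htr5b probe lies at chr1:123406629-123406688 on the minus strand. The Htr2a probe is placed on chr14:75044950-75105415 on the plus strand, a span of 60466 bases, so its 60 bases come from separate exons. The Htr2c probes A_51_P370810 and A_52_P487454 lie at chrX:143629642-143629702 and chrX:143631138-143631197 on the plus strand, in the same annotated transcript. Over all 78 pairs of the 13 probes the longest run of bases shared in the same orientation was 9, between an Htr1b and an Htr2c probe.

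Of the 13 probes, 10 entered the test, each well above background on 6 of 6 arrays. They cover every gene of the set except Htr4. Of these 10 probes, 5 had a higher and 5 a lower mean in BTBR cortex. The median difference was -0.03 on the log2 scale, against 0.04 over all entered probes. With limma and Benjamini-Hochberg adjustment over all entered probes at a threshold of 0.05, 1 of the 10 was higher in BTBR and 0 were lower. The array as a whole had 5.44% of entered probes past the test, 2.19% higher and 3.25% lower in BTBR. The 1 receptor probe past the adjusted threshold was also the 1 with an unadjusted p under 0.05. In 1 of the 10 probes the 2 groups of mice did not overlap, against 22.8% of all entered probes.

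**Figure D1:**
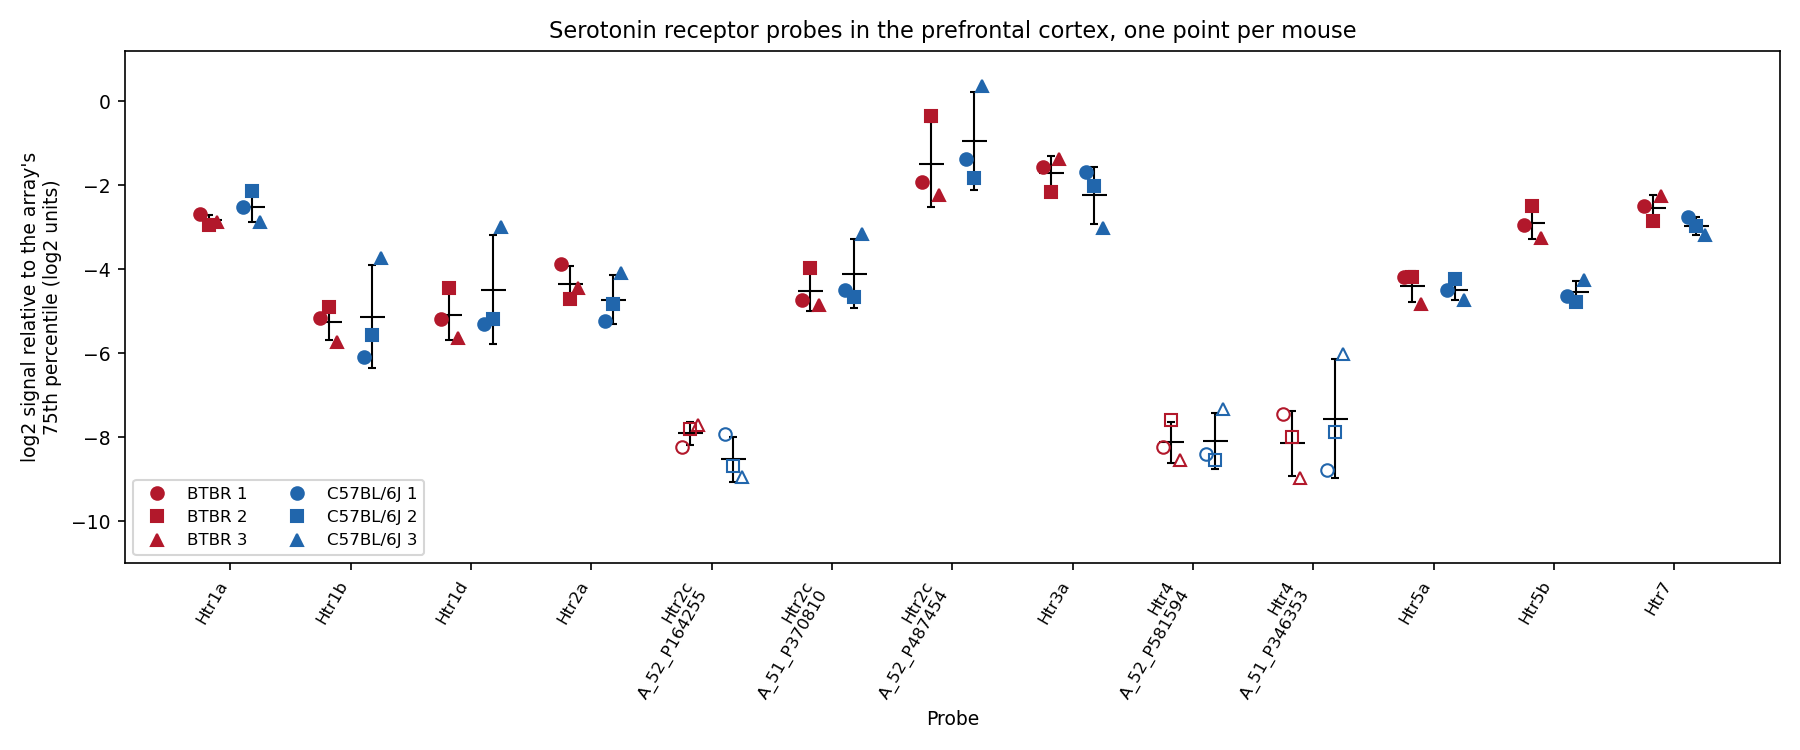
Level of each of the 13 serotonin receptor probes on each array, as log2 signal relative to the array's 75th percentile, with BTBR mice left of C57BL/6J mice, 1 point per mouse, black marks for each group's mean and SD (n = 3), and open points for the 3 probes that did not enter the test. Htr5b is the 1 entered probe whose 3 BTBR values, from -3.27 to -2.49, all lie above the 3 C57BL/6J values, from -4.77 to -4.24.

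The arrays differed in markers of striatal neurons and of other cells, and several receptors moved with the striatal markers. Of the markers of cortical excitatory neurons, 8 of 8 were well above background on every array. In BTBR mice 1, 2 and 3 they summed to 73.9, 53.5 and 70.2 times the array's 75th percentile. In C57BL/6J mice 1, 2 and 3 they summed to 63.8, 68.0 and 44.3, and 7 of the 8 were lowest in mouse 3. The 10 markers of striatal projection neurons, 9 of them well above background on all arrays, summed to 17.3, 58.5 and 14.5 times the array's 75th percentile in BTBR mice 1, 2 and 3. Their sums in C57BL/6J mice 1, 2 and 3 were 26.5, 33.0 and 212. Drd1, a dopamine receptor of striatal neurons, had levels of -1.63, -0.11 and -1.93 in BTBR mice and -1.51, -0.97 and 1.87 in C57BL/6J mice. C57BL/6J mouse 3 thus stood furthest above the others, and BTBR mouse 2 was the highest of its strain. Penk, an opioid peptide gene, made 55.2% to 71.9% of the striatal sum, and the order of the 6 arrays was the same without it. C57BL/6J mouse 3 and BTBR mouse 2 were also highest for markers of claustrum and endopiriform nucleus, at 17.4 and 15.9 against 6.9 to 8.0 in the others. Markers of olfactory bulb and neuroblasts were highest in BTBR mouse 2, at 10.5 against 2.2 to 3.7. Results that move with C57BL/6J mouse 3 and BTBR mouse 2 are given below with and without both arrays, a choice made after the values were seen. The part of striatal neurons or other cells in the receptor values was not tested. In whole tissue, fewer cells of a type and less RNA per cell cannot be told apart.

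Htr5b, which encodes a serotonin receptor that works in rodents and is a pseudogene in humans, was higher in BTBR cortex. Its levels were -2.94, -2.49 and -3.27 in BTBR mice and -4.64, -4.77 and -4.24 in C57BL/6J mice. Every BTBR value was above every C57BL/6J value. Within each strain the highest mouse, BTBR mouse 2 and C57BL/6J mouse 3, was the one with the highest striatal marker sum. The means were -2.90 ± 0.39 and -4.55 ± 0.27 (SD, n = 3 each). The log2 difference was 1.65 ± 0.23 (SE, 95% interval 1.09 to 2.22), or 3.14-fold (2.13 to 4.65), with a limma adjusted p of 0.0112. The signals before scaling also did not overlap, at 120, 153 and 123 units in BTBR mice and 64.6, 45.5 and 63.8 units in C57BL/6J mice. The arrays lay on 2 slides. The difference was 1.99 on slide 1, which held mice 1 and 2 of each strain, and 0.98 on slide 2, which held mouse 3 of each. With slide as a block the adjusted p was 0.0238. Without C57BL/6J mouse 3 and BTBR mouse 2 the difference was 1.60 ± 0.16 and the adjusted p 0.0192.

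The Htr5b call did not hold in every setting. The normexp correction subtracts the background of each spot and fits a model of noise and signal to each array. Here it also added an offset of 50 units, beside Htr5b signals of 45.5 to 153 units as reported. With normexp the Htr5b levels were -2.29, -1.85 and -2.61 in BTBR mice and -1.87, -3.35 and -3.27 in C57BL/6J mice. The value of C57BL/6J mouse 1 lies near that array's floor: its median over the 8631 probes well above background on 0 arrays was -2.03. That median was -3.91, -3.34 and -4.27 on the BTBR arrays and -4.10 and -4.28 on the other C57BL/6J arrays. As reported, the medians of the same probes were -8.81 to -7.82, so the floor rose on every array under normexp. The Htr5b difference became 0.58 ± 0.45 with an adjusted p of 0.962. Leaving out C57BL/6J mouse 1 or mouse 2 gave differences of 1.61 and 1.54, with limma adjusted p of 0.0577 and 0.0525. With a replicate block the limma adjusted p was 0.0549.

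**Figure D2:**
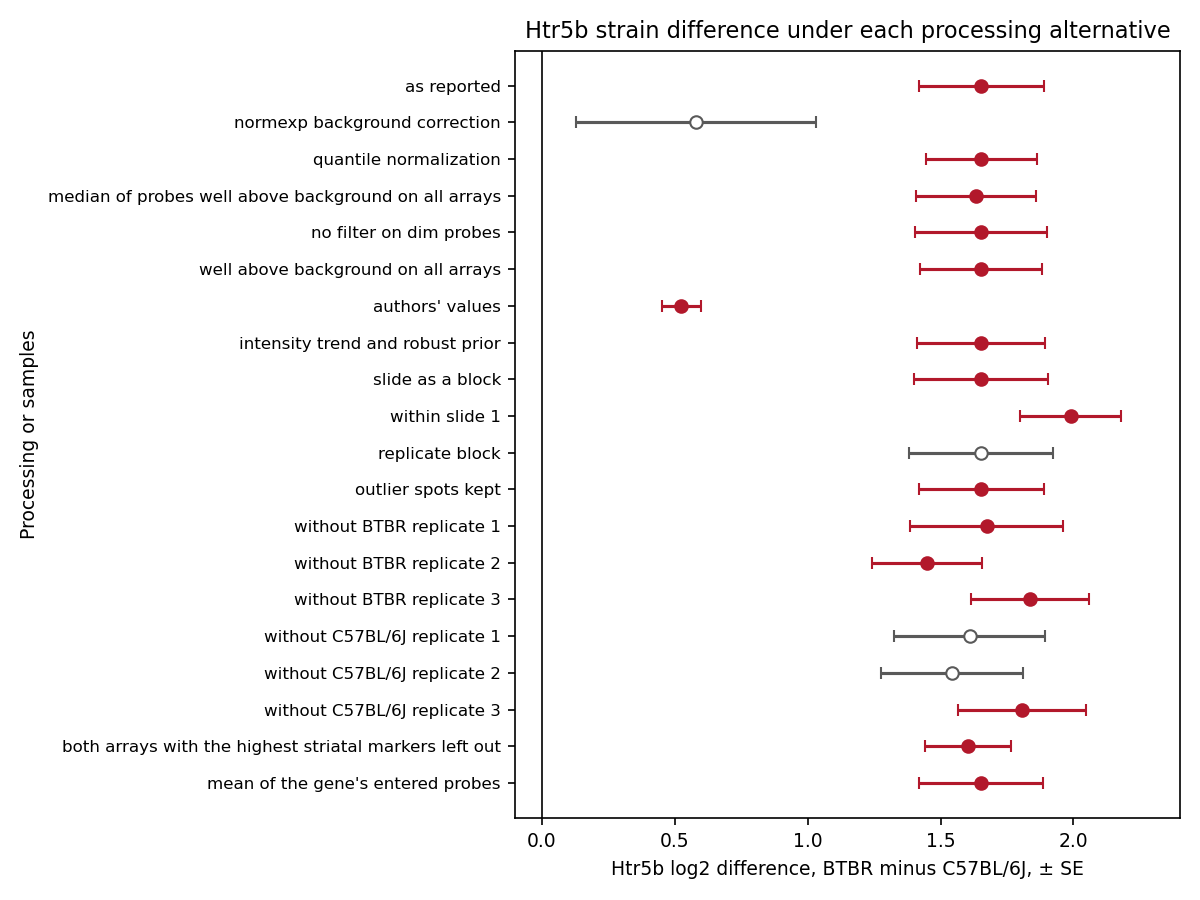
Strain difference of the Htr5b probe, BTBR minus C57BL/6J in log2 units, under the reported processing and each alternative, with bars of 1 SE and filled points where the adjusted p was under 0.05. Every difference is above 0, from 0.52 to 1.99, and 15 of the 19 alternatives keep the call. The 0.52 is that of the authors' deposited values, on whose scale differences are smaller.

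Htr5b in the mouse brain is best known from the habenula, the hippocampus and the raphe, so markers of these regions are set beside it. Of 5 markers of the medial habenula, 3 entered the test, and their sum was 2.70, 2.18 and 2.52 in BTBR mice and 1.57, 1.54 and 0.86 in C57BL/6J mice. Most of that sum is Tac2, a tachykinin gene, with log2 levels of 1.39, 1.06 and 1.30 in BTBR mice and 0.57, 0.54 and -0.33 in C57BL/6J mice. Without Tac2 the sums overlapped, at 0.09, 0.10 and 0.07 in BTBR mice and 0.08, 0.08 and 0.07 in C57BL/6J mice. The nicotinic receptor genes Chrna3 and Chrnb4, which define medial habenula neurons, were well above background on 0 arrays and on 1 array. The hippocampal marker sums overlapped, at 22.3 to 30.0 in BTBR mice and 16.8 to 28.9 in C57BL/6J mice. Of the raphe markers, Slc6a4, Gata3 and En1 were well above background on 0 arrays. The other 3 raphe markers summed to 0.36 to 0.38 in BTBR mice and 0.40 to 0.49 in C57BL/6J mice. Gata2 made 67.9% to 76.1% of that sum. Without Gata2 the sums overlapped, at 0.122, 0.092 and 0.099 in BTBR mice and 0.121, 0.125 and 0.105 in C57BL/6J mice. Oligodendrocyte marker sums did not overlap, at 101 to 113 in BTBR mice and 138 to 171 in C57BL/6J mice. Sums of interneuron markers of the medial ganglionic eminence did not overlap either, at 50.8 to 56.9 and 58.3 to 61.8. The part of any of these cell types in the Htr5b difference was not tested.

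Htr1a, the receptor that inhibits both raphe neurons and cortical pyramidal cells, had levels of -2.69, -2.95 and -2.88 in BTBR mice and -2.51, -2.15 and -2.88 in C57BL/6J mice. The groups met at their ends, since the lowest C57BL/6J mouse lay within the BTBR range. Within each strain the lowest mouse was the one with the highest striatal marker sum. The difference was -0.33 ± 0.20 (SE, 95% interval -0.80 to 0.15), with a limma adjusted p of 0.507. On slide 1 it was -0.49 and on slide 2 it was 0.00. Without C57BL/6J mouse 3 and BTBR mouse 2 it was -0.45 ± 0.18, with a limma adjusted p of 0.306.

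Htr1b and Htr1d encode closely related receptors, known as inhibitory receptors on axon terminals, and the Htr1b receptor is abundant in striatal output neurons. Htr1b had levels of -5.16, -4.90 and -5.72 in BTBR mice and -6.08, -5.56 and -3.74 in C57BL/6J mice. Htr1d had levels of -5.18, -4.43 and -5.63 in BTBR mice and -5.30, -5.18 and -3.00 in C57BL/6J mice. For both genes the highest mouse of each strain was the one with the highest striatal marker sum. The strain difference of Htr1b was -0.14 ± 0.60 (95% interval -1.58 to 1.30), adjusted p 0.951 with limma, and that of Htr1d was -0.59 ± 0.66 (-2.17 to 0.98), adjusted p 0.749. Their intervals are wide, so a change of more than 2-fold in either direction lies within that of Htr1b. On slide 1 the differences were 0.79 for Htr1b and 0.43 for Htr1d, and on slide 2 they were -1.99 and -2.64, so their signs turned between slides. Without C57BL/6J mouse 3 and BTBR mouse 2 they were 0.38 and -0.17.

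Htr5a, a Gi/o-linked receptor found widely in the forebrain, had levels of -4.19, -4.19 and -4.84 in BTBR mice and -4.50, -4.23 and -4.73 in C57BL/6J mice. The groups overlapped, and mouse 3 was the lowest of each strain. The difference was 0.08 ± 0.22 (95% interval -0.46 to 0.61), adjusted p 0.924 with limma. Set beside its relative Htr5b, the Htr5a interval lies below the interval of Htr5b, 1.09 to 2.22, though the difference between the 2 genes was not tested.

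Htr2a, the main excitatory serotonin receptor of cortical pyramidal cells and the target of classical hallucinogens, had levels of -3.88, -4.71 and -4.44 in BTBR mice. Its levels in C57BL/6J mice were -5.24, -4.83 and -4.10. The groups overlapped, with BTBR mouse 1 the highest of all and C57BL/6J mouse 3 next. The difference was 0.38 ± 0.34 (95% interval -0.43 to 1.19), adjusted p 0.673 with limma. It was 0.74 on slide 1 and -0.34 on slide 2. Without C57BL/6J mouse 3 and BTBR mouse 2 it was 0.88 ± 0.26, with an adjusted p of 0.194.

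Htr2c encodes a Gq-linked receptor known from striatum, choroid plexus and cortex, whose RNA is edited. Probe A_52_P487454 had levels of -1.93, -0.35 and -2.23 in BTBR mice and -1.38, -1.83 and 0.37 in C57BL/6J mice. Probe A_51_P370810 had levels of -4.74, -3.98 and -4.84 in BTBR mice and -4.50, -4.66 and -3.16 in C57BL/6J mice. Both probes were highest in C57BL/6J mouse 3 and next in BTBR mouse 2, in the order of the striatal marker sums. The differences were -0.56 ± 0.71 (95% interval -2.26 to 1.14) and -0.41 ± 0.44 (-1.47 to 0.64), with limma adjusted p of 0.785 and 0.737. On slide 1 they were 0.46 and 0.22, and on slide 2 they were -2.60 and -1.68. Without both arrays they were -0.48 and -0.21. The third Htr2c probe, A_52_P164255, which stands for another annotated transcript, was well above background on 0 arrays.

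Markers of the choroid plexus are set beside Htr2c as well. Of 10 of its markers, 7 entered the test, and their sum was 13.6, 12.5 and 18.7 in BTBR mice and 44.1, 17.2 and 12.3 in C57BL/6J mice. The transthyretin gene Ttr, which defines that tissue, was well above background on 2 arrays, with its highest level of 1.29 in C57BL/6J mouse 1. Htr2c was not highest there. Enpp2 made 78.4% to 97.5% of the sums. Without it the other markers summed to 0.41, 0.87 and 1.92 in BTBR mice and 9.52, 0.43 and 2.06 in C57BL/6J mice. C57BL/6J mouse 3, with the highest Htr2c level, had the lowest sum of all 6 mice with Enpp2. Without Enpp2 its sum was the highest after that of C57BL/6J mouse 1. The part of choroid plexus in the Htr2c values was not tested.

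Htr3a, which encodes the ion channel subunit and marks interneurons from the caudal ganglionic eminence, had levels of -1.57, -2.15 and -1.37 in BTBR mice and -1.69, -2.03 and -3.01 in C57BL/6J mice. The groups overlapped. Ranked from high to low, the 6 mice ran in exactly the reverse order of their striatal marker sums, with C57BL/6J mouse 3 at the bottom. The difference was 0.54 ± 0.37 (95% interval -0.35 to 1.44), adjusted p 0.565 with limma. On slide 1 it was 0.00 and on slide 2 it was 1.63. Without C57BL/6J mouse 3 and BTBR mouse 2 it was 0.39 ± 0.17, with an adjusted p of 0.365, and without C57BL/6J mouse 3 alone it was 0.16. The 10 CGE interneuron markers summed to 186, 160 and 168 in BTBR mice and 163, 166 and 91.2 in C57BL/6J mice. Of these sums 84.6% to 88.5% was Cck, a neuropeptide gene that pyramidal neurons also express. Without Cck the other 9 markers summed to 21.4, 19.7 and 25.0 in BTBR mice and 23.8, 20.8 and 14.0 in C57BL/6J mice. Of the 10 markers, 5 were lowest in C57BL/6J mouse 3. The part of these interneurons in the Htr3a values was not tested.

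**Figure D3:**
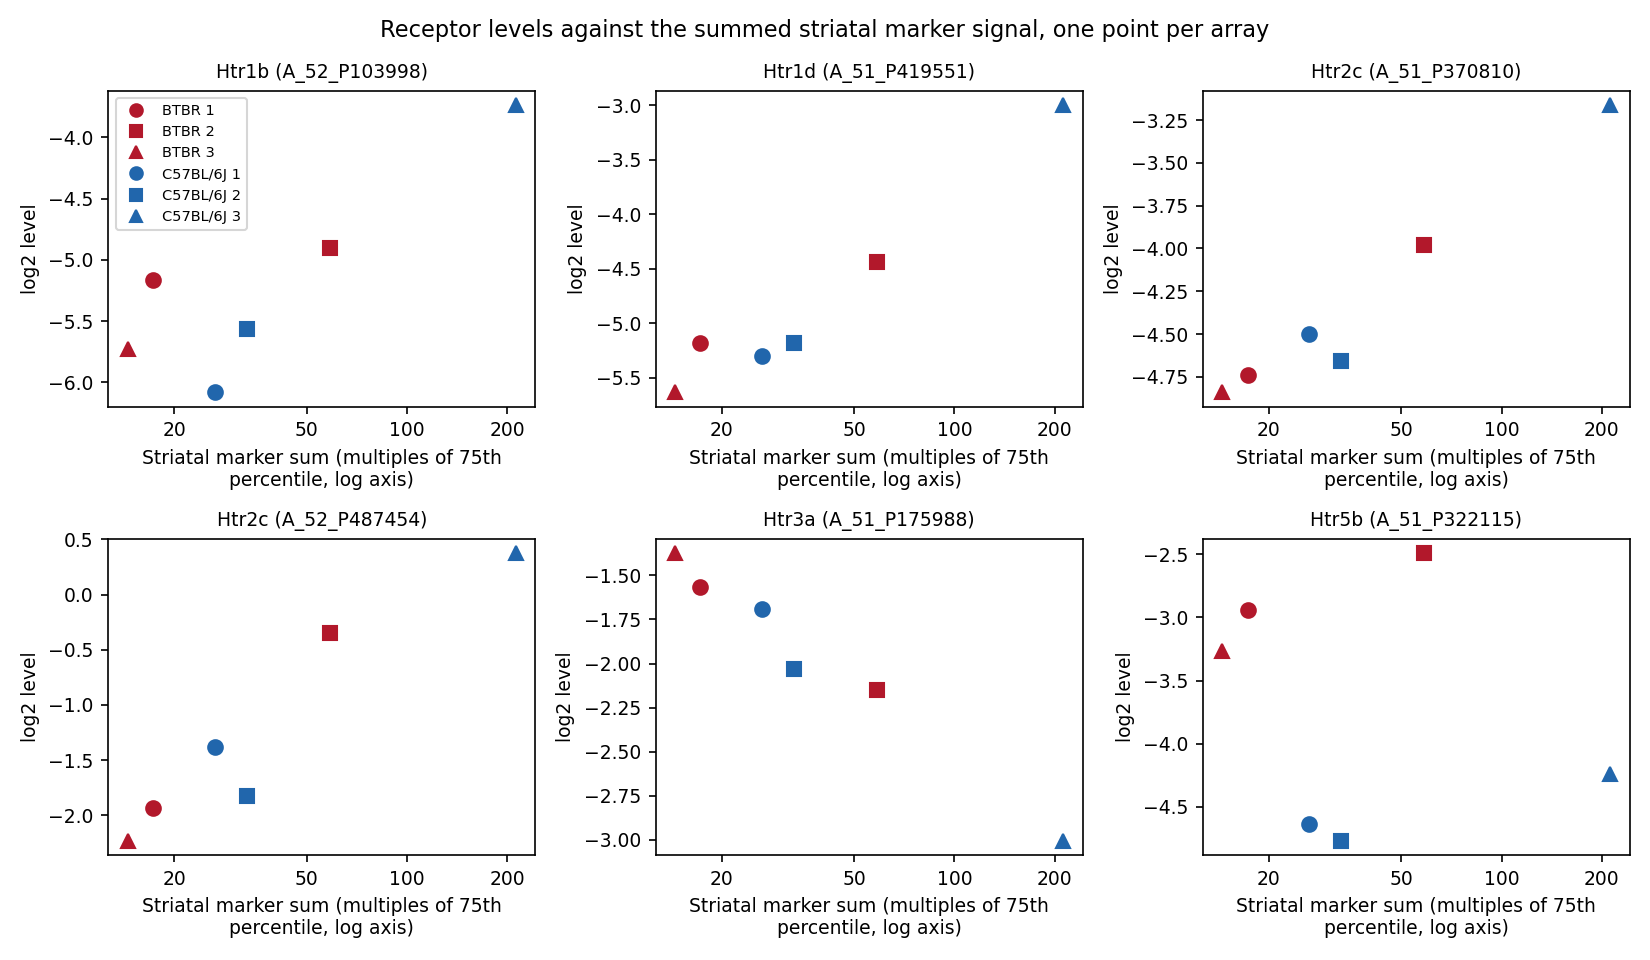
Level of 6 receptor probes (log2 signal relative to the array's 75th percentile) against the summed signal of 10 striatal markers, in multiples of the 75th percentile on a log axis, 1 point per mouse, BTBR in red and C57BL/6J in blue. Htr1b, Htr1d and both Htr2c probes are highest and Htr3a lowest in C57BL/6J mouse 3, whose sum is 212. Htr5b separates by strain, and within each strain it is highest in the mouse with the highest sum.

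Of the receptors linked to Gs, Htr7 was measured on all arrays and Htr4 was not. Htr7, known from thalamus, hippocampus and deep cortex, had levels of -2.49, -2.86 and -2.25 in BTBR mice and -2.76, -2.98 and -3.19 in C57BL/6J mice. The groups overlapped in a single place, where BTBR mouse 2 lay below C57BL/6J mouse 1. Within each strain the lowest mouse was the one with the highest striatal marker sum. The difference was 0.44 ± 0.19 (95% interval -0.02 to 0.91), with an unadjusted p of 0.0600 and an adjusted p of 0.328 by limma. On slide 1 it was 0.19 and on slide 2 it was 0.94. Without C57BL/6J mouse 3 and BTBR mouse 2 it was 0.50 ± 0.16, with a limma adjusted p of 0.221. Htr4, known from striatum and hippocampus, was near background with both probes. Probe A_52_P581594 was well above background on 0 arrays and A_51_P346353 on 1 array, that of C57BL/6J mouse 3, where its level was -6.01.

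**Figure D4:**
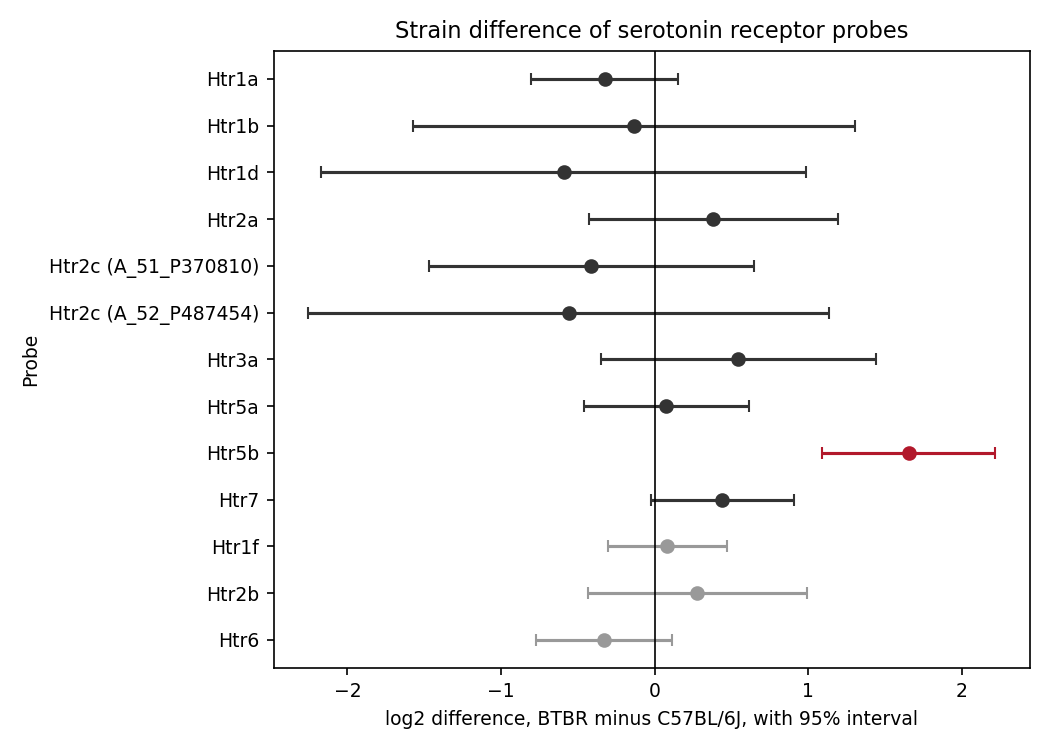
Strain difference of the 10 entered receptor probes and, in grey, of Htr1f, Htr2b and Htr6, BTBR minus C57BL/6J in log2 units, with 95% intervals as bars. The Htr5b interval, 1.09 to 2.22, lies above 0, in red, and the other intervals include 0.

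Mice of one strain differed more in each of the 10 entered receptor probes than in most entered probes of the array. The comparison took all entered probes and did not match them by level. The pooled SD within strains was 1.09 for Htr2c probe A_52_P487454, 1.01 for Htr1d and 0.92 for Htr1b, larger than for 98.9%, 98.6% and 98.3% of entered probes. It was 0.67 for the other Htr2c probe, 0.56 for Htr3a and 0.51 for Htr2a. For Htr5b, Htr5a, Htr1a and Htr7 it was 0.34, 0.32, 0.28 and 0.27, larger than for 78.4%, 75.7%, 69.0% and 67.3% of entered probes, whose median was 0.20. Without C57BL/6J mouse 3 and BTBR mouse 2 the pooled SD of the Htr2c probes was 0.27 and 0.09, that of Htr1d 0.23 and that of Htr1b 0.38. It was 0.18 for Htr5b, 0.20 for Htr3a and 0.35 for Htr5a. These arrays were picked with the values known and hold the extremes of several probes, so a smaller SD without them follows from the choice.

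Other serotonin receptor genes on the array did not pass the test. Htr1f, a Gi/o-linked receptor, differed by 0.08 ± 0.16 (adjusted p 0.876, limma), and Htr6, a Gs-linked receptor of the forebrain, by -0.33 ± 0.18 (adjusted p 0.460, limma). Htr2b was well above background on 3 arrays with probe A_52_P181925, where the difference was 0.28 ± 0.30 (adjusted p 0.739, limma), and on 1 array with A_51_P200388. Htr3b, the second subunit of the ion channel, was well above background on 0 arrays.

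The genes around the receptors were read from 6 lists of 81 genes, of which 80 were on the array and 76 entered the test, each by its brightest probe. With limma, 3 of the 76, or 3.95%, were higher in BTBR and 0 were lower, against 5.29% of all named genes, 2.03% higher and 3.26% lower. In the list of Gs, adenylyl cyclase and cyclic AMP genes 2 of 21 were higher. Prkar1a, a regulatory subunit of protein kinase A, had levels of 2.71, 2.67 and 2.71 in BTBR mice and 1.13, 1.23 and 0.74 in C57BL/6J mice. The groups were far apart, with a log2 difference of 1.67 ± 0.15, or 3.17-fold, at a limma adjusted p of 0.00167. Prkar1a was past the test in every alternative fit run. It was measured with 1 probe.

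Adcy7, an adenylyl cyclase, was 1.73-fold higher in BTBR by its brightest probe (log2 difference 0.79 ± 0.16, limma adjusted p 0.0423). Its other probe differed by 1.25, with a limma adjusted p of 0.0121. The call of the brightest Adcy7 probe was lost under normexp, where the adjusted p was 0.522, with no filter on dim probes (0.0906) and with a replicate block (0.0565). The call was also lost without any single mouse except BTBR mouse 3. It was also lost without C57BL/6J mouse 3 and BTBR mouse 2 together (0.176). With single mice left out, the adjusted p ran from 0.0610 without C57BL/6J mouse 1 to 0.173 without BTBR mouse 1. They were 0.127 without BTBR mouse 2, 0.148 without C57BL/6J mouse 2 and 0.0905 without C57BL/6J mouse 3.

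In the list of receptor partners and RNA editing 1 of 15 genes was higher. Adarb2, a catalytically inactive relative of the enzymes that edit Htr2c RNA and also a marker of CGE interneurons, was 2.14-fold higher by its brightest probe (log2 difference 1.09 ± 0.16, limma adjusted p 0.0113). Its probes disagreed: A_52_P682239 differed by 1.15 (adjusted p 0.0514) and A_52_P105429 was lower in BTBR, at -0.82 (adjusted p 0.0139). The brightest probe's call was lost under normexp (adjusted p 0.124), within slide 1 (0.0578), with a replicate block (0.0616) and without C57BL/6J mouse 3 and BTBR mouse 2 (0.0969).

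No gene of the remaining lists passed the test, beside the other receptors above. In the list of serotonin synthesis, transport and breakdown 0 of 14 passed with limma, and 0 had an unadjusted p under 0.05. The smallest p were those of Maob, a monoamine oxidase, at -0.31 (adjusted p 0.328), and Tph2, the brain's tryptophan hydroxylase, at -0.72 (adjusted p 0.445). The serotonin transporter gene Slc6a4 was well above background on 0 arrays. In the Gi/o and potassium channel list 0 of 11 passed, again with 0 at an unadjusted p under 0.05. Rgs4, which speeds the switching off of Gi/o and Gq proteins, was at -0.25 (adjusted p 0.439) and Kcnj6, a channel subunit, at 0.36 (adjusted p 0.510). In the Gq list 0 of 12 passed, with 1 at an unadjusted p under 0.05. That gene was Plcb2, a phospholipase, at -0.74 (adjusted p 0.109), followed by Prkca, a protein kinase C, at 0.38 (adjusted p 0.300).

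Over the 6 arrays the named genes whose levels followed Htr5b most closely, of 15296 compared, were Dbpht2 (Pearson r = 0.9995), Agps (r = 0.9982) and Pik3c2a (r = 0.9972). These r describe 6 points that share the strain difference, and in part the same arrays' scaling. Dbpht2 differed between strains by 2.25 ± 0.31 (limma adjusted p 0.0102), Pik3c2a, a lipid kinase, by 1.71 ± 0.22 (adjusted p 0.00706), and Agps, an enzyme of ether lipid synthesis, by 0.35 ± 0.10 (adjusted p 0.129).

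No probe of another gene next to Htr5b passed the test. Within 1 Mb of the probe in mm9, a window set after values were seen, 6 entered probes of Insig2, Ccdc93 and Ddx18 differed by -0.32 to 0.51. With limma 0 of the 6 passed, and 1 had an unadjusted p under 0.05. That was Ccdc93 probe A_51_P124719, at 0.51 ± 0.12 with an adjusted p of 0.0650, while its other probes differed by 0.14 and -0.32. In the same window around the Htr1d probe 7 of 51 probes passed, around Htr3a 5 of 24, around Htr4 1 of 23, around Htr5a 1 of 13 and around Htr7 1 of 12. None passed of 10 around Htr1a, 13 around Htr2a, 1 around Htr1b and 2 around Htr2c, against 5.44% of all entered probes.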

How the data were processed

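Total RNA from 6 dissected prefrontal cortices was labelled with Cy3 and hybridised to one-colour Agilent arrays, per the labels' protocols. Spot intensity values in the deposited scanner files were made by the authors with Agilent Feature Extraction, version 10.7.3.1 per the file headers and 9.1 per the submitters' processing notes. A deposited value table holds log2 values of the same arrays, with scale and centring not given in the sources used here. Its array medians were 8.82 to 8.83, and its strain differences followed those of the scanner files with a slope of 0.549, so differences are smaller on that scale.

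The processed intensity was divided by the 75th percentile of each array's 41174 non-control probes (859 to 1607 units) and put on the log2 scale. Spots marked as outliers, 54 to 107 an array, were left out only where the same probe had another spot not so marked. Of the probes, 28101 to 30665 an array were well above background and 0 were saturated. Probes well above background on at least 3 of 6 arrays were tested with limma 3.58.1 in R 4.3.3 (with the package data.table, version 1.17.8). P-values were adjusted by Benjamini-Hochberg over all 30011. The number of arrays limits the precision. The labels count 3 mice a group and name no litter or cage. The p-values therefore set each difference against the spread between these mice, which limma moderates with that of all entered probes. Intervals are 95% intervals of the fit.

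Genes were named by transcript accession (27816 probes), symbol (5503) or synonym (380) in a RefSeq gene table of another build, used for names alone. The name in the file was used for 1233, and 6242 had no name. Receptors were found by the name in the file. Named were every receptor probe, each list's genes past the test or else the 2 with the smallest p, and the 3 genes closest to Htr5b. Marker lists appear only where they bear on a receptor. The members and lists were chosen with earlier results of these data known. Same-numbered mice did not deviate together over all entered probes (correlations 0.03, -0.17 and -0.08). Such correlations cannot show whether the numbers pair mice. The fit was tested on simulated data. Alternatives covered background correction, scaling, filter, the deposited values, prior, slide, replicate block, outlier spots and single mice left out.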

Additional observations from a re-analysis of the deposited data

How the results depend on the processing

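Signal limits the dim probes: Htr1b was at -6.08 in C57BL/6J mouse 1, where the dimmest probe well above background was at -6.59. The reported counts past the test were 1 receptor probe, 1632 probes of all and 3 related genes. Normexp gave 0, 170 and 1, with 74.1% of calls lower in BTBR against 59.7% as reported and a median over all probes of -0.09. It also turned Htr2a to -0.18 and Htr5a to -0.29, and gave Htr5b 0.58. Probes well above background on 0 arrays were raised to a median of -2.03 on C57BL/6J array 1 and of -4.28 to -3.34 on the other arrays. As reported, those medians were -8.81 to -7.82. The authors' deposited values and an intensity trend with a robust prior each gave 5 related genes. Within slide 1, with 49.9% of calls lower, the difference turned to 0.79 for Htr1b, to 0.43 for Htr1d and to 0.22 and 0.46 for the Htr2c probes. A replicate block gave 0, 922 and 1, and the Htr5b adjusted p was 0.0549. Whether the numbers pair mice is not known. Leaving out both arrays with the highest striatal markers, chosen after seeing the data, gave 1008 probes and 1 related gene, and turned Htr1b to 0.38 and Htr5a to -0.15. Leaving out single mice gave 0 to 1 receptor probes, 858 to 1472 probes and 2 to 4 related genes. Differences then ran from -0.61 to 0.56 for Htr1b, -0.997 to 0.15 for Htr1d, -0.69 to 0.0597 and -1.14 to 0.10 for Htr2c, and -0.0455 to 0.29 for Htr5a. They ran from -0.51 to -0.14 for Htr1a, 0.12 to 0.69 for Htr2a, 0.16 to 0.82 for Htr3a and 0.30 to 0.60 for Htr7. Differences of Htr1a, Htr5b and Htr7 kept their sign in all 19 alternatives, and that of Htr3a in all but within slide 1, where it was 0.00. Slide 2 alone was not among the alternatives, and there the Htr1a difference was 0.00. Htr5b lay between 0.52, on the smaller scale of the deposited values, and 1.99, and its adjusted p between 0.00462 and 0.962. Causes beyond those values were not tested.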
